A study of Mus musculus with 12 samples.

Results

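Pituitary transcript levels of 8 mice that had received a vitamin D-deficient diet during either of 2 earlier windows of life were pooled and compared with those of 4 mice on a normal diet. All 12 samples of the series enter this comparison. Of the 8 deficient animals, 4 had the diet during early life and 4 during the peripubertal stage. Every animal was a female aged 2 months, of C57BL/6J background, a common inbred strain. The labels describe the 4 animals of each diet as biological replicates, and they name no transgene or deletion. Animals were taken by their labelled diet, so the choice of members used no measured value.

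RNA was measured on 6 Agilent 2-colour arrays, each holding a pair of animals of the same diet group, the odd-numbered one in Cy3 and the even-numbered one in Cy5. The 2 control arrays lay on 1 slide, scanned in 1 session. The 4 deficient arrays lay on another slide, scanned in another session, so diet cannot be told apart from slide or scan session in any difference between deficient and control animals. In the deposited value table, the 8 columns of the deficient animals equal scanned channels of the other deficient group, and its 4 control columns equal no scanned channel. The pooled difference does not depend on which deficient animals are early life and which peripubertal. Values named by window do, and they follow the scanner files.

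Vitamin D acts through its active form, which binds the vitamin D receptor. The receptor pairs with retinoid X receptors on DNA to change the transcription of target genes. The anterior pituitary makes growth hormone, prolactin, corticotropin, thyrotropin and gonadotropins in separate endocrine cell types. The intermediate lobe makes melanocyte-stimulating hormone, and the posterior lobe holds hypothalamic nerve endings among glial pituicytes.

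The pituitary label was checked on hormone genes. Growth hormone (Gh), prolactin (Prl), Pomc and the glycoprotein hormone alpha subunit (Cga) were well above background in every channel that gave a value, with mean log2 intensities in the control animals of 18.3, 17.7, 17.4 and 17.4. In a list of 16 ovary genes, 3 passed the filter on dim probes. All log2 intensities below are on a scale common to the 6 arrays. Differences are deficient minus control and come from limma, with dye as a term and array as a block. In bulk tissue, fewer cells of a type and less RNA per cell cannot be told apart.

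Pooling the windows left almost no gene past the threshold. Of 18318 genes, 1 was called at an adjusted p under 0.05 (0.00546%), and it was lower in the deficient animals. At an unadjusted p under 0.05 there were 713 genes (3.89%), 262 higher (1.43%) and 451 lower (2.46%). With outlier spots left out before scaling in place of after it, that count was 2162 (11.8%) and 83.7% of all genes were higher. This order was tried after seeing the data. Outlier marks fell on 1.68% and 1.90% of spots on the control arrays and on 3.85% to 7.34% on the deficient arrays. For spots over 12 in raw log2 brightness these shares were 7.06% and 7.87%, and 15.1% to 29.7%. The part of these marks in the counts was not tested. The 8 deficient and 4 control values did not overlap for 352 genes (1.92%). Of these, 135 were higher in deficient animals (0.737%) and 217 lower (1.18%). At a mean log2 level of 8 or below, 99 of them were lower and 31 higher, and between 10 and 12 these counts were 33 and 32. A gene could pass the filter on dim probes through the 4 control channels alone. The part of that filter in these counts was not tested. A log2 difference beyond 1 either way was measured for 105 genes (0.573%). Over all genes the median log2 difference was 0.01, and 53.1% were higher and 46.9% lower in the deficient animals. Median centring of the arrays moved that median to 0.16, with 72.0% higher, so directions of gene lists below are also given relative to all genes. The median 95% interval extended 0.41 log2 units to either side of a gene's difference.

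The deficient animals were not uniform. Between the windows, which share a slide, 62 of 17955 genes differed at an adjusted p under 0.05 (0.345%) in limma's fit with 3 diet groups, and 3655 at an unadjusted p under 0.05 (20.4%). The median absolute log2 difference per gene was 0.135 between the 2 control arrays. It was 0.176 and 0.234 between arrays of the same window, 0.208 to 0.314 between arrays of different windows, and 0.146 to 0.294 between a control and a deficient array. The smallest difference between a control and a deficient array was thus below all of those between deficient arrays. The pooled model counts the difference between windows as spread, and with 3 diet groups in place of 2 it called 11 genes, 2 higher and 9 lower.

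The called transcript is named in the file by its identifier, ENSMUST00000139309, and no gene symbol of the reference table matched it. Its probe lies at chr1:154531161-154531220 on the minus strand of mouse build mm9. Control animals 1 to 4 had log2 intensities of 11.05, 10.05, 12.02 and 10.83. The deficient animals ranged from 6.59 to 8.30 with a median of 6.84. The groups did not overlap, and within the deficient group peripubertal animals 3 and 4, which shared an array, stood highest at 8.30 and 8.02. The log2 difference was -3.87 (SE 0.44, adjusted p = 0.0213 in limma). In 2 of the 8 deficient channels the spot was well above background. The windows differed at this probe by -0.55 (SE 0.46, adjusted p = 0.511), early life minus peripubertal. Over 35 alternatives the difference ran from -6.37, with the software's processed signals, to -3.44. Its adjusted p ran from 0.00499 to 0.983 and passed in 18. With 1 animal left out at a time the count of called genes was 0 to 2. It fell to 0 on leaving out control 1, 3 or 4, each early life animal, or peripubertal animal 2.

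Spots printed next to this probe were also high on the control arrays. Adam4, a member of a family of membrane-anchored metalloproteases, is measured by the spot diagonally beside it. Its control values were 10.70, 9.58, 12.12 and 10.91, against a deficient range of 6.75 to 8.77 with a median of 6.91. Its difference of -3.51 (SE 0.55) did not pass (adjusted p = 0.106), and peripubertal animals 3 and 4 again stood highest. Of the 20 other spots within 2 rows and columns of the called probe that gave values on enough arrays, 9 were more than 1 log2 unit higher on a control array than on every deficient array. Over the whole array this held for 256 of 41187 spots, or 0.622%. The raised spots differed between the control arrays. On the array of control 1 and 2 the probe of Ptk2, a focal adhesion kinase, read 11.24, against 7.17 on the other control array. On the array of control 3 and 4 the probe of Nrg3, a neuregulin ligand, read 12.06, against 7.37 on the other. The called probe and Adam4 were raised on both control arrays, which held for 3 spots of the 41187. Leaving out the 316 genes whose spot had 3 or more such raised neighbours, and adjusting over the remaining 18002, left 0 genes called in limma, with a smallest adjusted p of 0.130 and 672 genes at an unadjusted p under 0.05. The called transcript was itself among those left out, so its call could not remain. Of the 61 genes with a difference below -1 this took out 29, and of the 44 above 1 it took out 0. This alternative was chosen after the data were seen. It looks only at spots raised on control arrays, and spots raised on deficient arrays were not examined in this way.

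**Figure D1:**
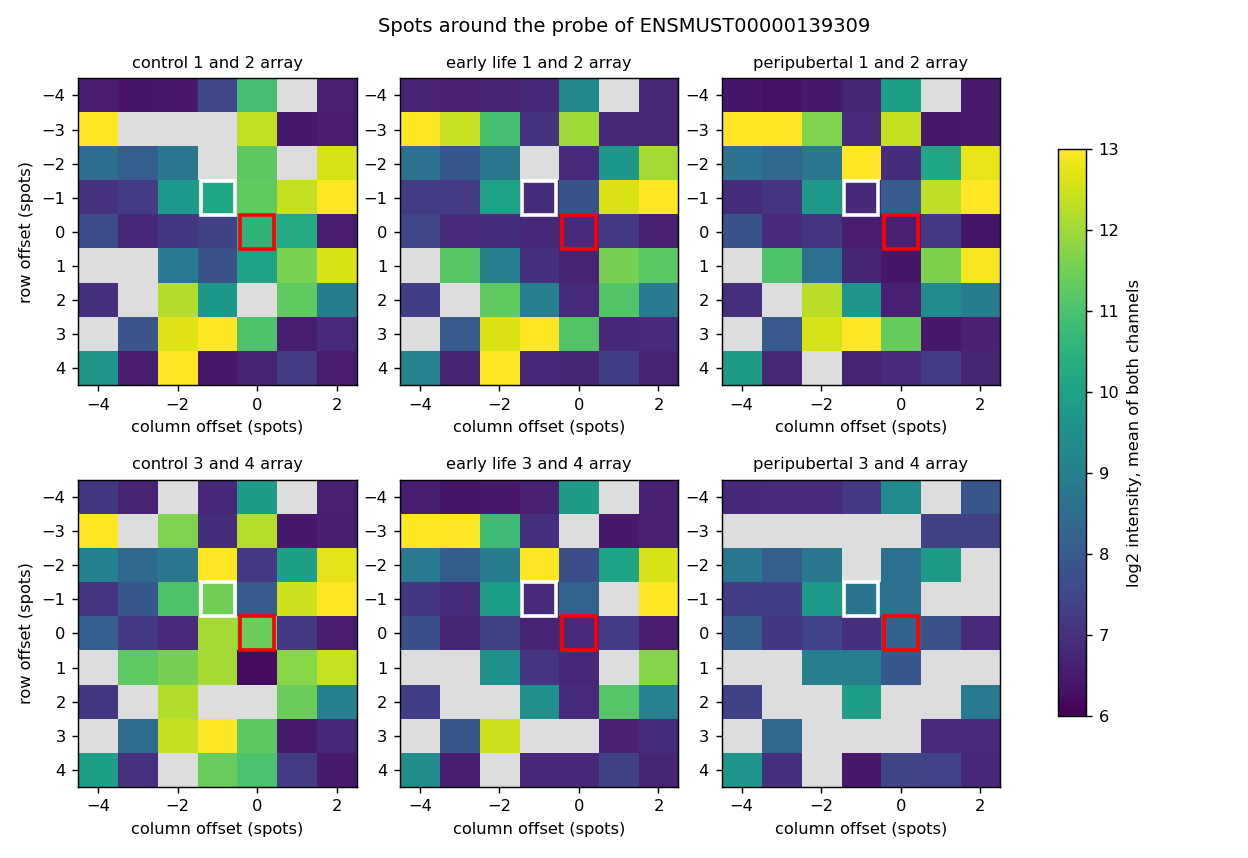
Log2 intensity (colour, mean of both channels) of the spots within 4 rows and 4 columns of the called probe, 1 panel per array. The axes give row and column offsets in spots, the red frame marks the called probe, the white frame marks Adam4, and grey cells had no value or no spot. Raised cells lie around both frames on the control arrays, such as 11.24 for Ptk2 on the array of control 1 and 2 and 12.06 for Nrg3 on that of control 3 and 4, while the framed probes read near 7 on the first 3 deficient arrays and 8.16 and 8.70 on that of peripubertal 3 and 4.

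Parts of these probes are printed to show what was spotted at the called probe and beside it. Each line gives 30 of the 60 bases, and the capitals mark the longest run of letters common to the called probe and that of Adam4, which is 9 bases.
ENSMUST00000139309: cctatataaaGCAGTTTTCcaaacggattt
Adam4: tGCAGTTTTCaaagcaatatttgtttcaga
Nrg3: caagtgactggaaatgtaggaatctgtgca
The Adam4 probe lies at chr12:82520575-82520634 and the Nrg3 probe at chr14:39183666-39183725, both on the minus strand of mm9. The longest run that the full called probe shares with the Nrg3 probe is 6 bases, and that between the Adam4 and Nrg3 probes is 5 bases.

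The next 20 genes of smallest p, counting only reference symbols and no predicted gene models, did not pass the threshold in limma. Their ranks by p among all genes ran from 3 to 30. Of these, 18 were lower and 2 higher in the deficient animals, and 19 had groups that did not overlap, beside 1.92% of all genes. With 3 diet groups in the fit, Zfyve9 and Tatdn2 passed at an adjusted p of 0.0255, Olfr1535 at 0.0287 and Adam4 at 0.0310. Since the 20 were taken for small p, the split of 18 lower and 2 higher and the 19 without overlap are descriptions. Sox1ot passed the filter on dim probes through the 4 control channels alone. For 13 of the 20 the mean of the deficient animals was under 8 on the log2 scale. For none did the windows differ at an adjusted p under 0.05. With the software's processed signals, the differences of 12 of the 21 genes, the called transcript included, lay more than 1.5 times farther from 0. That of Adam4 was then -5.75, of Zfyve9 -1.90, of Tatdn2 -2.23, of Tgif2 -1.56, of Uchl3 -1.48 and of Samd15 -2.29, while that of Ssmem1 was nearer 0 at -0.20. Except for Adam4 and Sox1ot, none had a neighbouring spot raised by more than 1 log2 unit on a control array over every deficient array, and Sox1ot had 1.

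**Figure D2:**
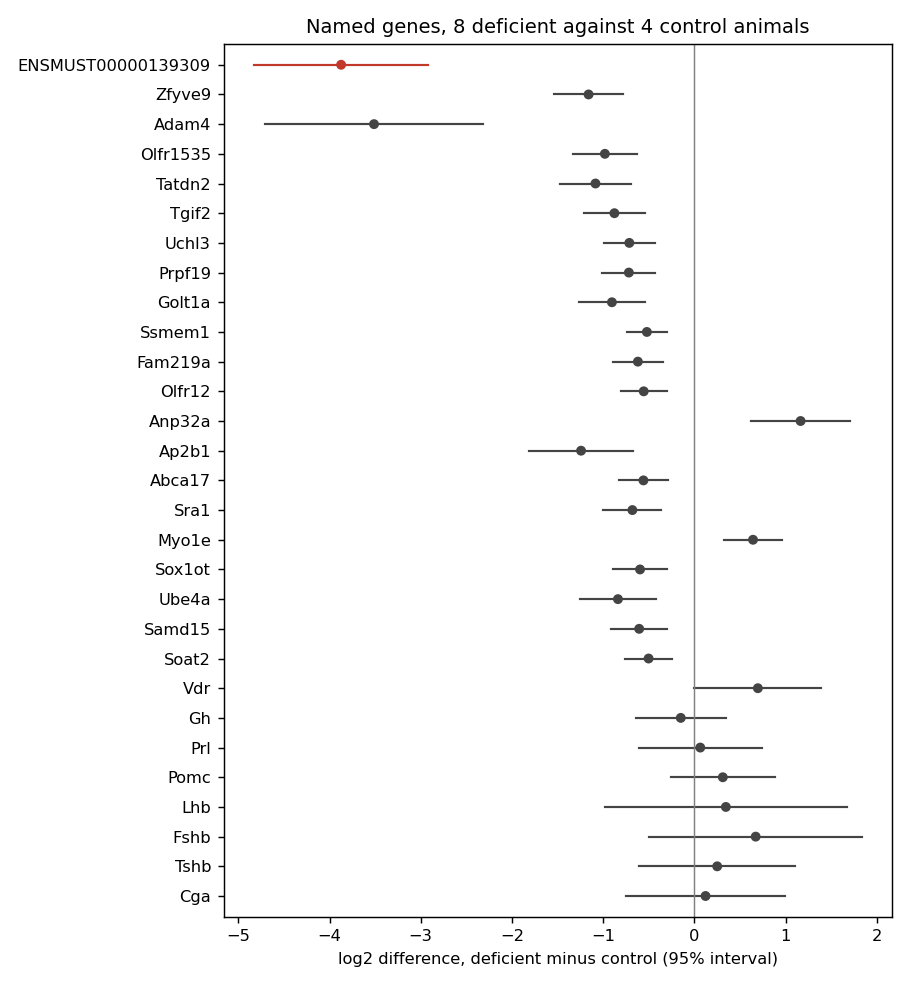
Log2 difference, deficient minus control (horizontal axis), with its 95% interval, 8 deficient against 4 control animals. Shown are the called transcript (red), the next 20 genes of smallest p with a reference symbol and no predicted models, Vdr and the hormone genes. The called transcript at -3.87 and Adam4 at -3.51 stand far to the left of the others, and Anp32a at 1.16 and Myo1e at 0.64 are the 2 of the 20 on the right.

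Regulators of TGF-beta signalling were among the genes of smallest p away from the raised spots. Zfyve9, also called SARA, anchors Smad proteins at the TGF-beta receptor. Control animals had log2 intensities of 8.98, 8.71, 8.70 and 8.59, and the deficient animals ranged from 7.23 to 8.01 with a median of 7.59. No deficient animal reached the lowest control, and the difference was -1.16 (SE 0.18, adjusted p = 0.106). Tgif2 is a homeodomain corepressor of TGF-beta-responsive transcription. Its control values were 8.69, 8.68, 8.37 and 8.25, against 7.28 to 7.87 in deficient animals with a median of 7.68. The difference was -0.88 (SE 0.15, adjusted p = 0.136), and its other 2 probes were above background in no channel. Their directions were not shared by the pathway: of 23 tested members of the TGF-beta signalling list, 17 were higher and 6 lower, with a median of 0.06. Smad3, a transducer of the signal, had a difference of 0.27 (SE 0.13) and Ltbp4, which binds the latent ligand, one of 0.46 (SE 0.23), both at an adjusted p of 1.00.

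Probes of these regulators and of Tatdn2 are shown in part to identify which stretch of each transcript was read, 30 of 60 bases each, with no capitals.
Zfyve9: ctcagtgaaggccctgtcgtcatggaactc
Tgif2: gaagcagcaagagccagcgccacctttgct
Tatdn2: ctccgagagaatacttgtcgcctctacagt
The full probes lie at chr4:108311864-108311923 on the minus strand, chr2:156679317-156679376 on the plus strand and chr6:113660140-113660199 on the plus strand of mm9. No annotation of that build was used here, so exon and UTR positions are not given.

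Tatdn2, a member of the TatD family of putative nucleases, had control values of 8.30, 8.61, 8.45 and 8.14. The deficient animals ranged from 6.98 to 7.76 with a median of 7.27, all below the controls, and the difference was -1.08 (SE 0.18, adjusted p = 0.106). Genes of protein ubiquitination and splicing were also among the 20. Uchl3, a ubiquitin hydrolase, had control values of 7.86, 8.03, 7.94 and 8.08, against 7.13 to 7.41 in deficient animals, a difference of -0.71 (SE 0.13, adjusted p = 0.164). Ube4a, a ubiquitin chain ligase, had control values of 10.98, 11.42, 11.21 and 10.99, against 9.99 to 10.68, a difference of -0.84 (SE 0.19, adjusted p = 0.530). Prpf19, a splicing factor that is also a ubiquitin ligase, had control values of 11.07, 10.85, 11.09 and 10.77. The deficient animals ranged from 10.02 to 10.69 with a median of 10.20, and early life animal 3 alone came close to the controls. The difference was -0.72 (SE 0.13, adjusted p = 0.193). It was -0.43 with outlier spots left out before scaling, where the median of all genes moved from 0.014 to 0.219. The dim spots around the Prpf19 probe differed by 0.22, outside the range of -0.16 to 0.20 that held 95% of genes. In the list of ubiquitin and proteasome genes 10 of 23 were higher and 13 lower (median -0.06, and relative to all genes from -0.12 to 0.02 over scaling and outlier settings), and in that of splicing genes 17 of 27 were higher and 10 lower (median 0.06).

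Some genes were read by more than 1 probe. Of the called transcript and the next 20 genes, 5 had another probe well above background in 3 or more channels: Anp32a, Fam219a, Ssmem1, Ube4a and Uchl3. The differences of group means at those probes ran from -0.15 for Fam219a to 0.25 for Uchl3, with -0.09 for Ssmem1, 0.09 for Ube4a and -0.01 for Anp32a. At the probes that stood for these genes they were -0.62 for Fam219a, -0.52 for Ssmem1, -0.71 for Uchl3, -0.84 for Ube4a and 1.16 for Anp32a. The difference between probes was not tested. Where probes were averaged per gene before the fit, the differences were -0.37 for Ube4a, -0.31 for Ssmem1 and -0.38 for Fam219a. Of the 21 genes, 13 had a single probe, Zfyve9 and Tatdn2 among them.

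**Figure D3:**
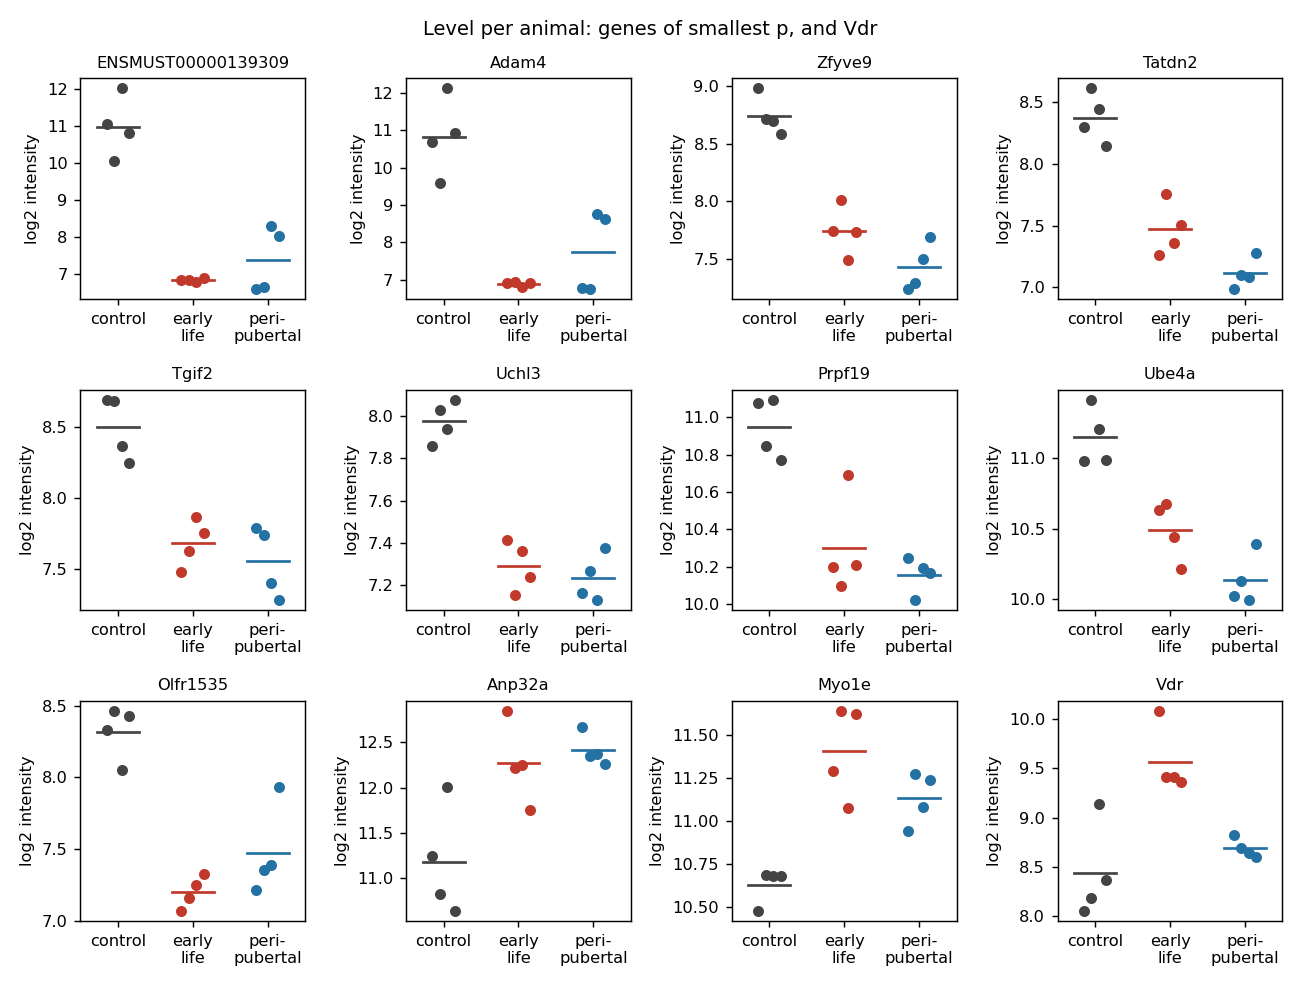
Log2 intensity of each animal (points) by diet group for 11 genes among those of smallest p, and for Vdr, with the group mean as a line and a separate vertical scale in each panel. Control and deficient points do not overlap in 10 of the panels, and they do in those of Anp32a and Vdr. The 11 genes were taken for small p, and over all genes 1.92% did not overlap.

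The 2 higher genes of the 20 were Anp32a and Myo1e. Anp32a, an acidic nuclear phosphoprotein, had control values of 11.24, 10.82, 12.01 and 10.63 and deficient values from 11.75 to 12.85 with a median of 12.31. Control 3 lay inside the deficient range, and the difference was 1.16 (SE 0.25, adjusted p = 0.474). Myo1e, a single-headed class I myosin, had control values of 10.47, 10.68, 10.68 and 10.68, and every deficient animal was above them, from 10.94 to 11.64. Its difference was 0.64 (SE 0.14, adjusted p = 0.529).

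The remaining 11 of the 20 besides Adam4 and the 8 genes described were all lower, with log2 differences from -1.24 to -0.50. Ap2b1, a subunit of the clathrin adaptor complex, stood at -1.24 (SE 0.26, adjusted p = 0.486) and had no value on the array of early life 3 and 4. The others were Olfr1535 (-0.98), Golt1a (-0.90), Sra1 (-0.68), Fam219a (-0.62), Samd15 (-0.61), Sox1ot (-0.60), Abca17 (-0.56), Olfr12 (-0.56), Ssmem1 (-0.52) and Soat2 (-0.50). For Sox1ot no deficient channel was well above background, so its control level is given as at least 1.28-fold higher. It passed the filter on dim probes through the 4 control channels alone, so its lower direction is a description only. The dim spots around Sra1 differed by 0.35, and those around Samd15, Olfr1535, Olfr12 and Soat2 by -0.19, -0.19, -0.18 and -0.15. For 95% of genes that measure lay between -0.16 and 0.20. The part of such local shifts in these results was not tested.

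Olfactory and vomeronasal receptors, whose known role is odour and pheromone sensing, supplied both Olfr1535 and Olfr12. Control values of Olfr1535 were 8.33, 8.47, 8.05 and 8.43, against 7.07 to 7.94 in deficient animals with a median of 7.29. Of 1350 receptors listed, 151 passed the filter on dim probes, 69 higher and 82 lower, with a median of -0.02. At an unadjusted p under 0.05, 20 of the 151 (13.2%) were lower and 1 higher, where 2.46% of all genes were lower. A gene could pass this filter through the 4 control channels alone. Genes at low intensity leaned the same way: of 4239 genes with a mean level of 8 or below, 0.991% were higher and 4.15% lower at an unadjusted p under 0.05. Among 4863 genes between 10 and 12 these shares were 1.89% and 1.60%. The share of spots well above background was 61.0% to 66.3% in control channels and 50.6% to 67.2% in deficient channels. The part of spot brightness in these counts was not tested.

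**Figure D4:**
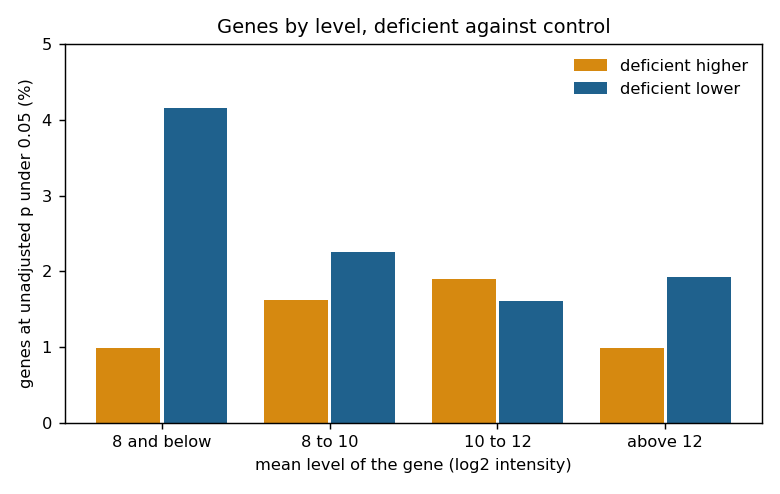
Percentage of genes at an unadjusted p under 0.05 (vertical axis) that were higher or lower in deficient animals, by mean level of the gene in log2 intensity (horizontal axis). Lower genes exceed higher ones at levels of 8 and below (4.15% against 0.991%), and between 10 and 12 the order is the opposite (1.60% against 1.89%).

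The vitamin D pathway showed no call. Vdr, the receptor itself, had control values of 8.05, 8.18, 9.13 and 8.36 and deficient values from 8.60 to 10.09 with a median of 9.09. Early life animals had 9.36 to 10.09 and peripubertal animals 8.60 to 8.82, so control 3 exceeded all 4 peripubertal animals. The difference was 0.70 (SE 0.32, adjusted p = 1.00). It was 1.14 with the early life animals alone, 0.26 with the peripubertal animals alone and 0.38 without the array of control 1 and 2. The difference between windows was 0.88 (SE 0.25, adjusted p = 0.112). Cyp27b1, which makes the active hormone, had control values of 7.83, 7.83, 7.62 and 7.55 and deficient values from 7.19 to 7.59, a difference of -0.35 (SE 0.13, adjusted p = 1.00). Cyp24a1, which degrades the hormone and is a textbook receptor target, was well above background in 0 of 12 channels and was not tested. Of 36 listed genes of vitamin D targets and metabolism, 26 were tested, 16 higher and 10 lower, with a median of 0.07. Among 23 tested genes of calcium sensing and transport 17 were higher and 6 lower (median 0.09), with Atp2a3, a calcium pump of the endoplasmic reticulum, at 0.35 (SE 0.14, adjusted p = 1.00).

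The pituitary hormone genes overlapped between diets, and all had an adjusted p of 1.00. Differences were -0.15 (SE 0.22) for Gh, 0.06 (SE 0.31) for Prl, 0.31 (SE 0.26) for Pomc, 0.35 (SE 0.61) for Lhb, 0.67 (SE 0.51) for Fshb, 0.25 (SE 0.39) for Tshb and 0.12 (SE 0.39) for Cga. Their 95% intervals were wide: that of Gh ran from -0.64 to 0.34 and that of Lhb, the luteinizing hormone subunit, from -0.98 to 1.67. Fshb, the follicle-stimulating hormone subunit, had no value on either early life array. Gh and Cga had none on the array of early life 1 and 2. Of these genes Pomc alone kept its direction under every alternative run, and Gh, Prl, Lhb, Fshb, Tshb and Cga each turned under at least 1. Inha, the inhibin alpha subunit that restrains follicle-stimulating hormone, had control values of 9.91, 10.14, 10.20 and 10.36. The 6 deficient animals with a value ranged from 10.53 to 11.07, all above the controls, as for 0.737% of all genes. The Inha difference was 0.60 (SE 0.15, adjusted p = 0.704).

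No gene list separated the diets. Of 45 lists with 5 or more tested members, 29 had a median above 0 and 16 below, from -0.16 to 0.43, and 0 members were called. Per-animal scores were the mean of each animal's deviation over the members with a value in all 12 channels, which can be far fewer than those tested. For every list the range of these scores overlapped between deficient and control animals. Relative to the median of all genes, 30 of the 45 lists kept their side under 5 other settings of scaling and outlier spots. The highest median, 0.43, was that of glucocorticoid-responsive genes, with 13 of 15 higher and 2 lower, beside 53.1% of all genes higher. The windows were not alike in its scores, which rest on 6 members. These were 0.18 to 0.83 in early life, -0.39 to -0.09 in peripubertal and -0.90 to 0.49 in control animals. Klf9, a transcription factor induced by glucocorticoids, had control values of 11.48, 12.10, 12.66 and 11.48 and early life values of 12.89 to 14.02, while peripubertal values of 12.03 to 12.65 lay within the control range. Its difference was 0.81 (SE 0.45, adjusted p = 1.00), and Sgk1, a kinase of ion transport, had one of 0.84 (SE 0.48, adjusted p = 1.00).

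Markers of the intermediate and posterior lobes also lay above the median of all genes. Of 9 tested pituicyte markers 8 were higher (median 0.31). Slc1a3, a glial glutamate transporter, had control values of 8.18, 8.21, 9.37 and 9.63, so that the 2 control arrays differed, and deficient values from 9.13 to 10.33. Its difference was 0.95 (SE 0.32, adjusted p = 1.00). All 6 melanotroph markers tested were higher (median 0.29), with Oacyl at 0.45 (SE 0.21) and the prohormone convertase Pcsk2 at 0.39 (SE 0.20). Of 11 stem and folliculostellate markers 9 were higher (median 0.25). Somatotroph markers were lower in 5 of 7 (median -0.15) and macrophage markers in 9 of 13 (median -0.09). The windows were not alike in the per-animal scores. Somatotroph scores were -0.84 to -0.32 in early life, -0.25 to 0.47 in peripubertal and -0.21 to 0.52 in control animals. Macrophage scores were -0.524 to -0.004, -0.22 to 0.77 and -0.37 to 0.52 in that order. Stem and folliculostellate scores were -0.11 to 0.58, -0.30 to 0.09 and -0.27 to 0.07. The proportion of lobes in each dissection was not tested.

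Among other groups, 19 of 22 interferon response genes were higher (median 0.14), with Irf9, a subunit of the interferon-activated transcription complex, at 0.59 (SE 0.29, adjusted p = 1.00). The score of this list reached 0.69 in peripubertal animal 4 and lay between -0.28 and 0.15 in the other 7 deficient animals. Of 19 immediate early genes 15 were higher (median 0.12). Scores of that list, over the 12 members with all values, were -0.11 to 1.08 in early life, -0.62 to 0.02 in peripubertal and -0.66 to 0.18 in control animals. Of 27 genes of cholesterol and fatty acid synthesis 18 were lower (median -0.08). Here scores were -0.33 to -0.13 in early life, -0.11 to 0.21 in peripubertal and -0.18 to 0.28 in control animals. Cytosolic ribosomal protein genes were near even, 14 higher and 17 lower (median -0.01, and relative to all genes from -0.19 to 0.09 over scaling and outlier settings). Rpl27 and Rpl3 were lower in every deficient animal with a value than in any control, as were 1.18% of all genes. Rpl3 had 6 deficient values. The differences were -0.44 (SE 0.18) for Rpl27 and -0.40 (SE 0.17) for Rpl3, with an adjusted p of 1.00 for both.

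**Figure D5:**
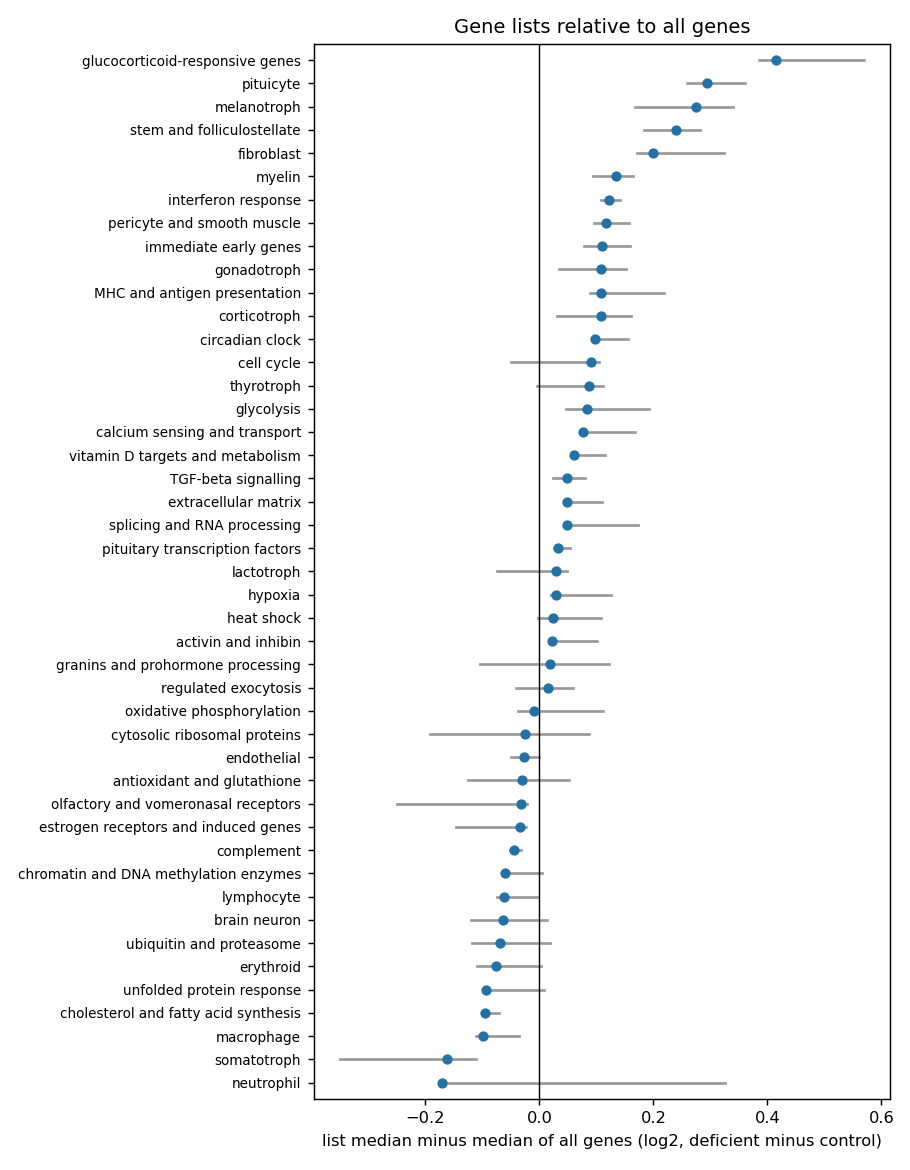
Median log2 difference of each gene list minus that of all genes (horizontal axis, deficient minus control) as a blue point, with a grey line from the lowest to the highest value over 5 alternative scaling and outlier settings and the main one. Glucocorticoid-responsive genes lie farthest right at 0.41, and the neutrophil line crosses 0.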

How the data were processed

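Per the file headers, the authors' scanner files were written by Agilent Feature Extraction, version 11.0.1.1. These deposited files give each spot's intensity, local background and quality marks. The deposited value table holds log2 values, which were only matched to scanned channels (tolerance 1e-06). Each array held 44397 features, of which 1377 were controls and left out. Background was corrected by normexp (offset 50), dyes by loess and arrays by Aquantile, in limma 3.58.1. Spots marked as outliers were set to missing after scaling. Spots of a probe were averaged, and probes well above background in at least 4 of 12 channels were kept. The brightest probe stood for its gene, with values required on both control arrays and at least 2 deficient arrays. Of 39429 probes, 31392 were matched to RefSeq gene names of GRCm38.p6. limma fitted 2 diet groups and dye, with array as a random block (correlation 0.476) and Benjamini-Hochberg adjustment over 18318 genes. The method was tested on simulated data. Intervals are at 95%, all tests are two-sided, and the number of arrays limits precision.

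Named genes are those past the threshold, then those of smallest p up to 20 with a reference symbol, leaving out predicted gene models, then Vdr, Cyp24a1, hormone genes and members of smallest p in each list. Members and lists were chosen with earlier results of these data known.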

Additional observations from a re-analysis of the deposited data

Results flagged for a closer look

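Among the genes named in the report, 3 had an animal whose distance from the nearest other of its diet was large against the whole range of that diet. Such a distance arises by chance in about 1 of 20 groups. As deficient and control animals of many genes were screened, some such distances are to be met by chance. Olfr1535 read 7.94 in peripubertal animal 4, above the other deficient animals. Prpf19 read 10.69 in early life animal 3, above the other deficient animals. Myo1e read 10.47 in control animal 1, below the other controls.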

How the results depend on the processing

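The count of called genes, 1 as reported, was 0 with the software's processed signals, median centring, no filter on dim probes, only probes well above background in all 12 channels, array means, or genes beside raised spots left out. The all-channel filter and the raised-spot rule each left out the called transcript itself, so its call could not remain there. The count was 11 with 3 diet groups, 27 with no array block, 11 with early life animals alone and 10 with peripubertal animals alone. Without the array of control 1 and 2 it was 25, and without that of peripubertal 3 and 4 it was 4. It was 0 without the array of control 3 and 4, of early life 1 and 2, of early life 3 and 4, or of peripubertal 1 and 2. Leaving out 1 animal at a time gave 0 to 2. Where it was 0, limma gave 366 to 1486 genes at an unadjusted p under 0.05. The other 9 alternatives gave 1, among them outlier spots left out before scaling, which moved the median of all genes to 0.22. Over all alternatives 366 to 2938 genes had an unadjusted p under 0.05. Same-numbered animals deviated together with correlations from -0.29 to 0.06, after group and dye means were removed. With 4 animals per group, and arrays shared by pairs, such correlations cannot exclude a pairing by number. With the replicate block the count was 1.

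Signs turned for Gh with median centring (0.051), where the median of all genes was 0.163, and for Fshb with outlier spots kept (-0.21). Cga turned with the mean of probes (-1.33), genes with all 12 values (-0.15) and early life alone (-0.00581). With all 12 values, Cga was read by another probe, at a mean level of 7.35 against 17.5 for the reported one. The mean of probes averaged both, and the reported probe had no value on the array of early life 1 and 2. Lhb turned with early life alone (-0.027) and without the array of control 3 and 4 (-0.49), and Tshb without that of control 1 and 2 (-0.029). Prl turned with peripubertal animals alone (-0.14), without the array of control 1 and 2 (-0.34) and without that of early life 1 and 2 (-0.0498). With 1 animal left out at a time, Prl ranged from -0.14 to 0.261, Lhb from -0.118 to 0.576 and Cga from -0.21 to 0.428. Apart from the change of probe for Cga, the cause of these turns was not tested.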
